A study of Mus musculus with 21 samples.

Results

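Metabotropic glutamate receptors are the G protein-coupled receptors through which glutamate, the main excitatory transmitter of the brain, tunes synapses more slowly than through its ion channels. The 7 genes described here, Grm2 to Grm8, were taken by their symbol from the deposited comparisons of AdipoRon-treated cortical neurons. All 7 were present in every one of the 4 tables, which list 22040 genes in any table and 19399 in all of them. Grm5 belongs to group I, which couples to Gq, phospholipase C and release of calcium from stores, and sits mainly on the postsynaptic side. Grm2 and Grm3 (group II) and Grm4, Grm6, Grm7 and Grm8 (group III) couple to Gi/o, lower cyclic AMP and, on presynaptic terminals, reduce transmitter release.

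RNA was profiled in neuron cultures prepared from the cortex of newborn mice, either wild type (WT) or carrying a human tau transgene with the P301S mutation (hTau P301S, here Tau). The transgene is driven by the prion promoter, and the Tau cultures were seeded with preformed tau fibrils (3 μg/mL on day 7, then 18 days of culture). Seeding is described for transgenic neurons in the labels, while the study's text can also be read as placing WT cultures after seeding. Whether fibrils differ between Tau and WT groups is thus not settled, and if they do, genotype and seeding cannot be told apart. AdipoRon, a small molecule agonist of the adiponectin receptors, was given at 10 μM for 24 h, and the control groups received its vehicle DMSO. There were 5 cultures of WT with DMSO, 6 of WT with AdipoRon, 5 of Tau with DMSO and 5 of Tau with AdipoRon, and all had been treated with the antimitotic AraC against glia. Cultures came from separate pups within a group, and the study's reporting summary says that cells of the same animal went into each treatment, so the AdipoRon and DMSO groups of a genotype share pups. Whether the deposited test paired them is not stated, and no paired fit could be made here. The SEs, intervals and sizes needed to pass for AdipoRon are thus those of that test as deposited. The z test of the difference between genotypes rests on the same SEs. Values per culture and sequencing depth were not used here: each gene is given by its log2 fold change and mean level in each comparison, with the standard error (SE) recovered from the likelihood ratio.

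Levels were first compared between the genes, as the mean level (CPM, counts scaled to library size) that the tables imply for each of the 4 groups and, where genes are set against each other, as CPM per kilobase of transcript. Each group level comes from 2 tables, and these estimates differed by at most 0.05 on the log2 scale (Grm6) or 0.03 for the other genes. No spread over cultures stands behind these levels, so their order is a description.

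Grm5, the group I receptor, was the most abundant of the 7 genes per kilobase in every group. Its mean level was 144 CPM in WT with DMSO, 136 in WT with AdipoRon, 136 in Tau with DMSO and 138 in Tau with AdipoRon. In WT with DMSO this was 16.9 CPM per kb, and 92.0% of all genes in the table of Tau against WT with DMSO had a mean level at or below that of Grm5.

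Grm7, a presynaptic receptor with low affinity for glutamate, came next, with 41.2 CPM in WT with DMSO, 30.9 in WT with AdipoRon, 49.8 in Tau with DMSO and 35.3 in Tau with AdipoRon. Both AdipoRon groups lay below both DMSO groups. Grm4, a presynaptic group III receptor, followed it per kilobase in all groups. It stood at 24.4 CPM in WT with DMSO, 30.1 in WT with AdipoRon, 27.8 in Tau with DMSO and 33.8 in Tau with AdipoRon, so that the AdipoRon groups lay above the DMSO groups.

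The group II genes lay further apart in CPM in Tau with AdipoRon than in the other 3 groups. Grm2, mainly a neuronal presynaptic autoreceptor, had 11.9 CPM in WT with DMSO, 16.7 in WT with AdipoRon, 12.7 in Tau with DMSO and 20.0 in Tau with AdipoRon. Grm3, found on neurons and also the main metabotropic receptor of mature astrocytes, had 15.9 CPM in WT with DMSO, 14.9 in WT with AdipoRon, 12.7 in Tau with DMSO and 9.42 in Tau with AdipoRon. Per kilobase, Grm3 lay above Grm2 in WT with DMSO (2.96 against 2.48 CPM per kb) and below it in the other 3 groups, reaching 1.75 against 4.18 in Tau with AdipoRon. This order depends on the transcript taken: per kilobase of the longest transcript, Grm3 also lay above Grm2 in WT with AdipoRon (2.69 against 2.41) and in Tau with DMSO (2.28 against 1.84), and below it in Tau with AdipoRon alone (1.70 against 2.89).

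Grm8, a presynaptic group III receptor, was sixth in all groups, with 5.47 CPM in WT with DMSO, 3.21 in WT with AdipoRon, 5.38 in Tau with DMSO and 3.56 in Tau with AdipoRon. Grm6 was lowest, at 0.238 CPM in WT with DMSO, 0.184 in WT with AdipoRon, 0.279 in Tau with DMSO and 0.325 in Tau with AdipoRon. Grm6 is known as the receptor of retinal ON bipolar cells, where it controls the channel Trpm1. Of the 6 markers listed for those cells, 5 were tested (Cabp5 was not analysed here), with a summed level of 8.87 to 10.5 CPM over the groups, and the mean level of Trpm1 was 0.42 log2 CPM in the comparison of Tau with WT under DMSO.

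Summed per kilobase by receptor group, Grm5 alone held 43.5% of the 7-gene total in WT with DMSO, the 2 group II genes 13.97% and the 4 group III genes 42.5%. With AdipoRon these shares were 43.1%, 17.0% and 39.9% in WT neurons. In Tau neurons they were 39.6%, 12.4% and 47.9% with DMSO, and 41.8%, 15.3% and 43.0% with AdipoRon. The shares are of these 7 genes only and carry no test.

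**Figure D1:**
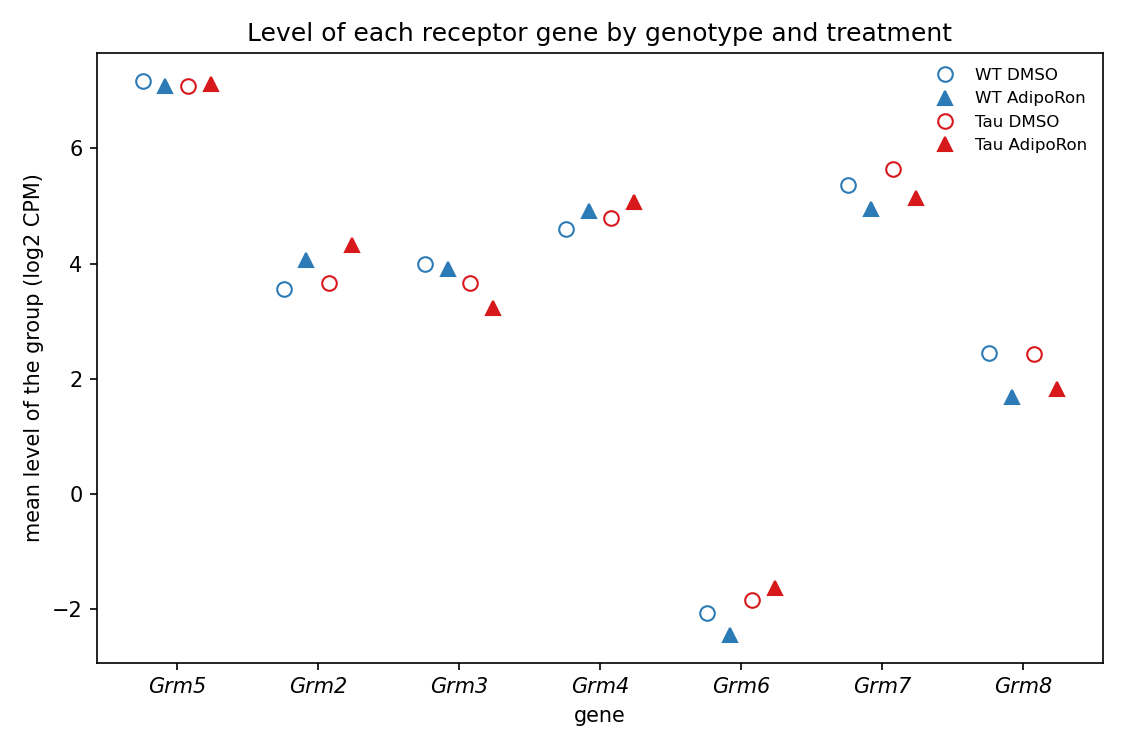
Mean level of each receptor gene (log2 CPM, not scaled by length) in WT and Tau neurons with DMSO (open circles) or AdipoRon (filled triangles), without error bars since each point is 1 mean implied by the tables for 5 or 6 cultures. Grm5 lay near 7 log2 CPM in all 4 groups and Grm6 near -2, while both AdipoRon points of Grm7 and Grm8 lay below the DMSO points and those of Grm2 and Grm4 above them.

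The genes lie on 6 chromosomes and differ widely in their span, from 11.6 to 922 kb, while their canonical transcripts measure 3.86 kb (Grm8) to 8.53 kb (Grm5). In RefSeq coordinates of GRCm38.p6, Grm7 (chr6:110645349-111567230) and Grm8 (chr6:27275121-28135146) lie on the same chromosome and span 922 and 860 kb, with transcripts of 4.20 and 3.86 kb. Grm5 (chr7:87583981-88135063) spans 551 kb and Grm3 (chr5:9485236-9725352) spans 240 kb. Grm4 (chr17:27422387-27513826) spans 91.4 kb, Grm6 (chr11:50850369-50866208) 15.8 kb and Grm2 (chr9:106644534-106656109) 11.6 kb. The canonical transcript has 6 exons for Grm2 and Grm3, and 10 or 11 for the others.

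The effect of the tau model without drug was addressed by Tau against WT neurons with DMSO. None of the 7 receptor genes passed an adjusted p of 0.05 in edgeR's likelihood ratio test, and none had an unadjusted p under 0.05. Of all 19811 genes in this comparison 0.00505% (1 gene) passed the adjusted threshold and 1.26% had an unadjusted p under 0.05. The log2 fold change was above 0 for 4 members and below 0 for 3, with a median of 0.11 beside 0.01 over all genes.

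For Grm5 the log2 fold change was -0.08 (SE 0.31), with a 95% confidence interval from -0.68 to 0.53. For Grm3 it was -0.32 (SE 0.25, interval -0.81 to 0.17), the only member whose difference exceeded its own SE in this comparison. Grm7 had a value of 0.28 (SE 0.38) and Grm4 one of 0.20 (SE 0.41). Grm2 (0.11, SE 0.47) and Grm8 (-0.02, SE 0.37) lay well within their SE, and Grm6 (0.21, SE 0.78) was the least precise. Every interval contained 0, and every adjusted p was 1.00 after rounding. The estimate of Grm5 would have had to reach 1.40 in size on the log2 scale at this SE to pass. The lack of calls therefore does not exclude a difference.

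The response of Tau neurons to AdipoRon was addressed next. Again 0 of 7 genes passed an adjusted p of 0.05 and 0 had an unadjusted p under 0.05 in edgeR's test. Of the 20294 genes tested, 0.68% passed the adjusted threshold, 0.503% were past it and lower with AdipoRon, and 4.78% had an unadjusted p under 0.05. Point estimates were above 0 for 4 members and below 0 for 3, with a median of 0.02 beside -0.01 over all genes.

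Grm5 was the nearest to 0, with a log2 fold change of 0.02 (SE 0.36) and a 95% confidence interval from -0.69 to 0.73. The group II genes had estimates of opposite sign: Grm2 stood at 0.65 (SE 0.58, interval -0.48 to 1.78) and Grm3 at -0.43 (SE 0.29, interval -1.01 to 0.14). Among the group III genes, Grm8 was at -0.60 (SE 0.42, interval -1.42 to 0.21) and Grm7 at -0.50 (SE 0.44, interval -1.36 to 0.36). Grm4 stood at 0.28 (SE 0.47) and Grm6 at 0.20 (SE 0.81). The smallest unadjusted p of the 7 was 0.141, for Grm3, and every adjusted p was 1.00 after rounding.

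In the comparison of AdipoRon with DMSO in WT neurons more genes were called, with 3.07% of 21378 genes past the adjusted threshold, 2.07% past it and lower, and 10.4% at an unadjusted p under 0.05. None of the 7 receptor genes was among those past the adjusted threshold, and 1, Grm8, had an unadjusted p under 0.05. Of the members 2 were above 0 and 5 below, at a median of -0.11 beside 0.01 for the whole table.

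For Grm8 the log2 fold change was -0.79 (SE 0.30), with a 95% confidence interval from -1.37 to -0.20, which is a ratio of 0.580 to the DMSO level. Its unadjusted p was 0.00813 and its adjusted p 0.165 in edgeR's test, at rank 1051 of the 21378 genes. With this SE a value of 0.94 in size would have been needed to pass. The group means behind it were 5.47 CPM with DMSO and 3.21 CPM with AdipoRon, and the estimate in Tau neurons had the same sign.

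Markers of neurons, on which Grm7 and Grm8 are mainly found, were read in the same comparisons. Of 13 neuronal markers 11 were below 0 with AdipoRon in each genotype. Their median was -0.29 in WT and -0.13 in Tau neurons, beside 0.01 and -0.01 over all genes. The 1 marker past the adjusted threshold was Neurod2, a transcription factor of excitatory neurons. It rose in WT neurons (1.45, SE 0.33, adjusted p 0.00133, edgeR), where 3.07% of all genes passed. The part of these markers in the values of Grm7 and Grm8 was not tested.

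The other 6 genes did not reach an unadjusted p under 0.05. Grm7 stood at -0.43 (SE 0.31, interval -1.03 to 0.17), with an adjusted p of 0.821. Grm2 was at 0.48 (SE 0.49, interval -0.49 to 1.45), Grm4 at 0.29 (SE 0.38, interval -0.45 to 1.03) and Grm6 at -0.40 (SE 0.85). Grm5 at -0.11 (SE 0.27, interval -0.63 to 0.42) and Grm3 at -0.11 (SE 0.23, interval -0.56 to 0.33) had the tightest intervals. For these latter genes, estimates of 0.84 and 0.72 in size on the log2 scale would have passed.

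**Figure D2:**
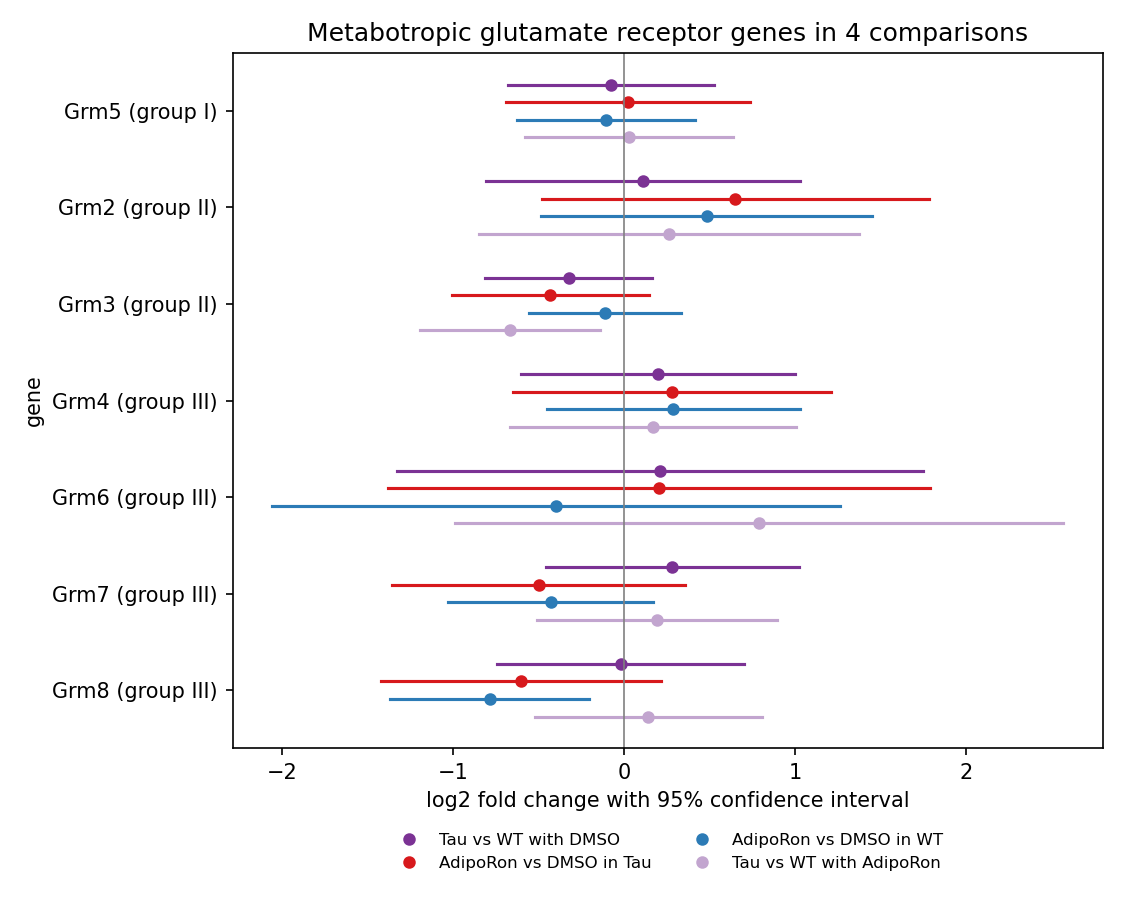
Log2 fold change of each receptor gene (points) with its 95% confidence interval (bars) in the 4 comparisons, positive where the first-named condition is higher. Only the intervals of Grm8 for AdipoRon in WT neurons (-1.37 to -0.20) and of Grm3 for Tau against WT with AdipoRon (-1.19 to -0.14) leave out 0, and neither gene passed the adjusted threshold.

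The last comparison set Tau against WT neurons when both had received AdipoRon. No member passed an adjusted p of 0.05, where 0.341% of 21378 genes did, and 1 member, Grm3, had an unadjusted p under 0.05, where 3.34% of genes did. Point estimates were above 0 for 6 members and below 0 for Grm3 alone, with a median of 0.17 beside 0.00 over all genes.

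Grm3 had a log2 fold change of -0.67 (SE 0.27) and a 95% confidence interval from -1.19 to -0.14, a ratio of 0.630. Its unadjusted p was 0.0129 and its adjusted p 0.823 in edgeR's test, at rank 334. The group means were 9.42 CPM in Tau and 14.9 CPM in WT. The comparison shares its Tau cultures with that of AdipoRon in Tau neurons, and its WT cultures with that of AdipoRon in WT neurons. The other 6 genes had values of 0.03 (Grm5, SE 0.31), 0.26 (Grm2, SE 0.57), 0.17 (Grm4, SE 0.43), 0.79 (Grm6, SE 0.91), 0.19 (Grm7, SE 0.36) and 0.14 (Grm8, SE 0.34). All of these were smaller than their SE.

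Because Grm3 is also expressed by glia, markers of the cell types that such cultures can hold were read beside it. In bulk RNA, fewer cells of a type and less RNA per cell cannot be told apart. The cultures are labelled as neurons and their neuronal markers were abundant, with Camk2a at a mean of 10.2 log2 CPM in Tau against WT with AdipoRon. The astrocyte marker Gfap stood at 11.0 log2 CPM in the same comparison, despite the AraC.

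All 8 microglial markers were lower in Tau than in WT neurons in both genotype comparisons. Their median log2 fold change was -0.85 with DMSO and -0.995 with AdipoRon. In each, 7 of the 8 had an unadjusted p under 0.05, beside 1.26% and 3.34% of all genes, although 0 passed the adjusted threshold. Cx3cr1, a chemokine receptor of microglia, had a log2 fold change of -1.57 (adjusted p 0.187, edgeR) with AdipoRon. The summed level of the 8 markers was 459 to 462 CPM in WT with DMSO, 536 to 546 in WT with AdipoRon, 258 to 259 in Tau with DMSO and 275 to 277 in Tau with AdipoRon, each range being that of the tables.

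The 9 markers of the oligodendrocyte lineage were likewise all lower in Tau, with medians of -0.41 with DMSO and -0.63 with AdipoRon. An unadjusted p under 0.05 was reached by 1 and 3 of them, beside 1.26% and 3.34% of all genes, and 0 passed the adjusted threshold. Their summed level was 1734 to 1753 CPM in WT with DMSO, 1491 to 1511 in WT with AdipoRon, 1303 to 1305 in Tau with DMSO and 1093 to 1104 in Tau with AdipoRon, so the order of the 4 groups was the same as for Grm3. The summed microglial markers, unlike Grm3, were higher with AdipoRon than with DMSO in both genotypes. Gene by gene the direction was mixed. In Tau neurons 5 of the 8 lay below 0 with AdipoRon (median log2 fold change -0.18), and in WT neurons 3 of 8 (median 0.23). No spread over cultures stands behind these orders of the group levels.

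The 10 astrocyte markers did not share the order of Grm3 either. Their medians were -0.01 with DMSO and 0.07 with AdipoRon, with 4 and 6 of 10 above 0. They summed to 4805 to 4854 CPM in WT with DMSO, 4967 to 5034 in WT with AdipoRon, 4739 to 4743 in Tau with DMSO and 5162 to 5214 in Tau with AdipoRon. The 13 neuronal markers had medians of 0.03 and 0.20, and summed to 5891 to 6001, 4927 to 4939, 6194 to 6225 and 5924 to 5934 CPM in the same order of groups. All listed microglial, oligodendrocyte, astrocyte and neuronal markers were tested in every comparison. The part of these markers in the value of Grm3 was not tested.

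**Figure D3:**
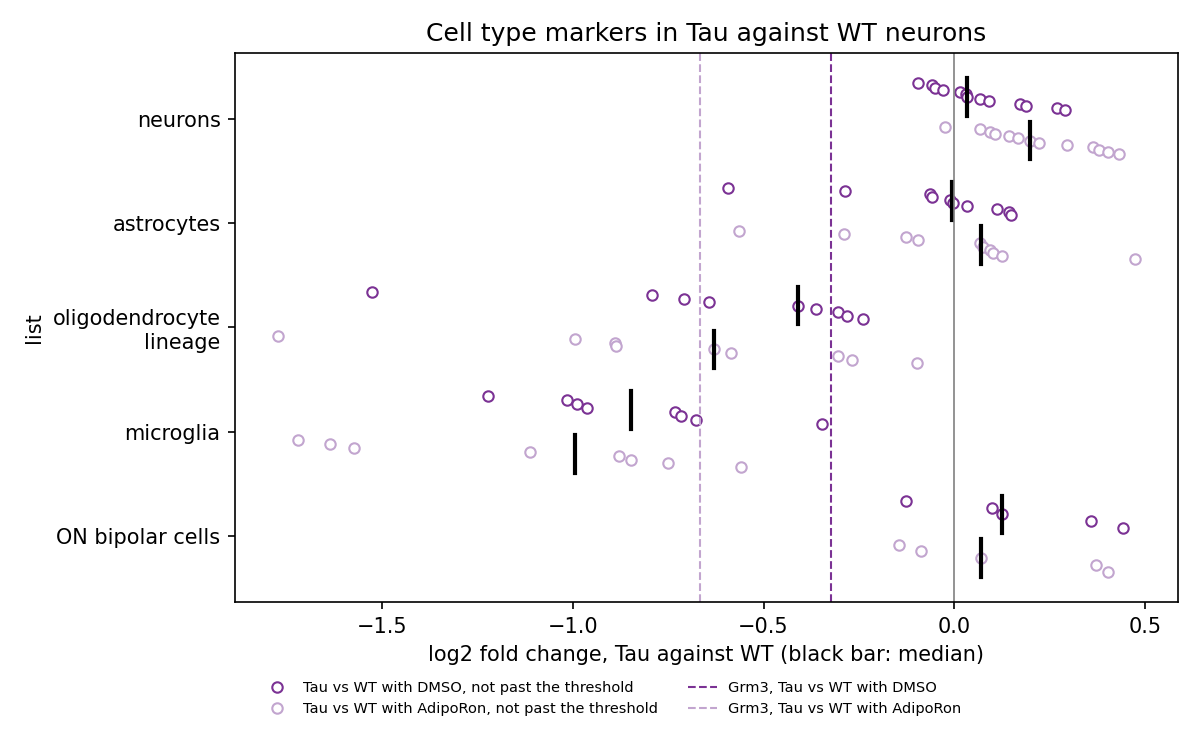
Log2 fold change of Tau against WT neurons for each marker gene (circles), by cell type, with DMSO (dark) and AdipoRon (light), the median of each list (black bar) and the value of Grm3 (dashed lines). All microglial and oligodendrocyte lineage markers lie below 0, while the medians of neuronal and astrocyte markers lie between -0.01 and 0.20.

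Whether the genotypes differed in their response to AdipoRon was tested from the difference of the log2 fold changes in Tau and WT neurons, which come from separate cultures. None of the 7 genes passed an adjusted p of 0.05, and 0% of 19890 genes did so. At an unadjusted p under 0.05 there were 0 of 7 members and 0.92% of all genes. The z scores had a robust SD of 0.314 over all genes, so the SEs were wide beside the spread of the differences. The absence of calls thus does not show that the responses were alike.

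The largest difference among the members, Tau minus WT, was that of Grm6 (0.60, SE 1.17). Next came Grm3 at -0.32 (SE 0.37, 95% confidence interval -1.05 to 0.41), with an unadjusted p of 0.388 by the z test. For Grm8 the difference was 0.18 (SE 0.51, interval -0.82 to 1.19) and for Grm2 0.17 (SE 0.76, interval -1.32 to 1.66). Grm5 differed by 0.13 (SE 0.45, interval -0.76 to 1.01), Grm7 by -0.07 (SE 0.53, interval -1.12 to 0.98) and Grm4 by -0.01 (SE 0.61, interval -1.20 to 1.18). These intervals do not show that the genotypes responded alike.

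The sign of the response was the same in both genotypes for 5 members: Grm2 and Grm4 were above 0 in both, and Grm3, Grm7 and Grm8 below 0 in both. Grm5 and Grm6 were of opposite sign, each with values smaller than their SE. Over all genes 78.5% had the same sign, so the share among the 7 genes was near that of the background.

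**Figure D4:**
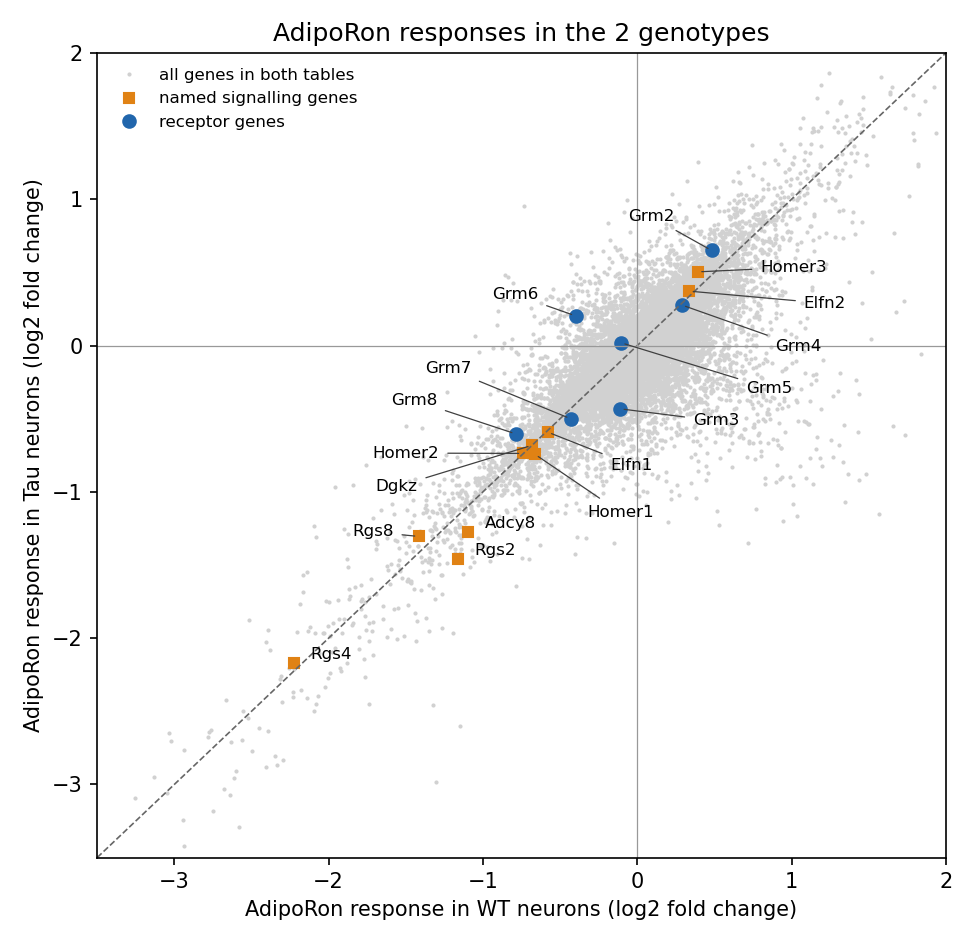
AdipoRon response (log2 fold change) in WT neurons against that in Tau neurons for the 7 receptor genes (circles), named genes that act with them (squares) and all genes (grey, 39 of which lie outside the axes), with the line of equal response dashed. The receptors lie between -0.79 and 0.65 near the centre of the cloud, while Rgs4 lies below -2 on both axes.

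Genes that act with the receptors were then read from a list of 69, all of which were tested. The list was chosen with earlier results of these data known, so its counts beside the background are a description. None passed the adjusted threshold in either comparison of Tau with WT. With AdipoRon, 2 of 69 were past it in Tau neurons and 5 of 69 in WT neurons (backgrounds 0.68% and 3.07%), all of them lower and 0 higher. At an unadjusted p under 0.05 there were 6 of 69 in Tau and 15 of 69 in WT neurons, beside 4.78% and 10.4% of all genes. The median log2 fold change of the list was -0.17 in Tau and -0.21 in WT neurons, beside -0.01 and 0.01 over all genes. Of the 69 genes 43 and 48 lay below 0.

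In the Gq arm, through which Grm5 signals, 0 of the 12 genes read passed the adjusted threshold, and 0 had an unadjusted p under 0.05, in any of the 4 comparisons by edgeR's test. With AdipoRon 8 of the 12 lay below 0 in Tau and 10 in WT neurons. The medians were -0.15 and -0.25, beside -0.01 and 0.01 over all genes. Plcb1, a phospholipase C beta, stood at -0.30 (SE 0.35) in Tau and -0.38 (SE 0.24) in WT neurons. Itpr1, the inositol trisphosphate receptor through which calcium leaves its stores, stood at 0.01 (SE 0.30) and 0.00 (SE 0.22).

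In the Gi/o arm, to which groups II and III couple, 0 of 14 genes passed the threshold in Tau neurons (background 0.68%). In WT neurons 1 of 14 passed it (background 3.07%). That gene, Adcy8, encodes a calcium-stimulated adenylyl cyclase. Its level was 18.5 CPM in WT with DMSO, 8.78 in WT with AdipoRon, 19.8 in Tau with DMSO and 8.22 in Tau with AdipoRon. The log2 fold change was -1.10 (SE 0.28, adjusted p 0.00546, edgeR) in WT and -1.28 (SE 0.38, adjusted p 0.0942) in Tau neurons, and the difference between genotypes was -0.18 (SE 0.47).

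Regulators that end or limit receptor signals held most of the calls, with 2 of 11 in Tau and 4 of 11 in WT neurons, all lower. Over all genes 0.68% in Tau and 3.07% in WT neurons were called. The list was not lower throughout: 5 of the 11 lay above 0 in Tau and 4 in WT neurons, up to 0.42 and 0.48. Its medians were -0.01 and -0.09, beside -0.01 and 0.01 over all genes. The RGS proteins speed the return of G proteins to their inactive state. Rgs4 had 239 CPM in WT with DMSO, 51.6 in WT with AdipoRon, 266 in Tau with DMSO and 59.4 in Tau with AdipoRon. Its log2 fold change was -2.17 (SE 0.58, adjusted p 0.0316, edgeR) in Tau and -2.23 (SE 0.30, adjusted p 1.09e-10) in WT neurons.

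Rgs2, which acts mainly on Gq, fell by 1.46 on the log2 scale in Tau (SE 0.40, adjusted p 0.0456, edgeR) and by 1.16 in WT neurons (SE 0.21, adjusted p 3.78e-06). Rgs8 fell by 1.41 in WT neurons (SE 0.26, adjusted p 1.59e-05), and in Tau neurons its value was -1.30 (SE 0.39, adjusted p 0.0972). Dgkz, a diacylglycerol kinase that removes the lipid product of phospholipase C, fell by 0.68 in WT neurons (SE 0.20, adjusted p 0.0308), with -0.68 in Tau neurons (SE 0.34, adjusted p 0.986). For none of these 4 genes did the difference between the genotypes pass its test, and the largest was that of Rgs2 (-0.29, SE 0.45, interval -1.18 to 0.59).

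Of 17 scaffolds and binding partners 0 passed the adjusted threshold in any comparison. For AdipoRon in WT neurons 6 of 17 had an unadjusted p under 0.05, beside 10.4% of all genes. With AdipoRon 10 of the 17 lay below 0 in Tau and 12 in WT neurons. The medians were -0.35 and -0.40, beside -0.01 and 0.01 over all genes. The Homer proteins tie group I receptors to the inositol trisphosphate receptor and to the Shank scaffold. Homer1 stood at 127 CPM in WT with DMSO, 81.1 in WT with AdipoRon, 142 in Tau with DMSO and 85.2 in Tau with AdipoRon. Its log2 fold change was -0.66 (SE 0.29, adjusted p 0.305, edgeR) in WT and -0.74 (SE 0.42) in Tau neurons. Homer1 is counted as a gene, so its short and long forms, which act in opposite ways on the receptors, are not separated.

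Homer2 stood at -0.74 in WT (SE 0.25, adjusted p 0.0941, edgeR) and -0.74 in Tau neurons (SE 0.39). Homer3 had values of opposite sign, 0.39 (SE 0.24) and 0.50 (SE 0.35). The Elfn proteins are postsynaptic adhesion molecules that bind group III receptors across the synapse. Elfn1 was at -0.58 in WT (SE 0.29, adjusted p 0.456, edgeR) and -0.59 in Tau neurons (SE 0.32), and Elfn2 at 0.34 (SE 0.31) and 0.37 (SE 0.44).

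Genes that supply or clear glutamate and related ligands had 0 of 15 past the adjusted threshold in every comparison. With AdipoRon 12 of the 15 lay below 0 in Tau and 11 in WT neurons. The medians were -0.19 and -0.27, beside -0.01 and 0.01 over all genes. In WT neurons the values ran from -0.67 to 0.49. Among them were the vesicular transporter Slc17a7 (0.03, SE 0.35, for AdipoRon in WT neurons) and the glial uptake transporter Slc1a2 (-0.15, SE 0.22).

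**Figure D5:**
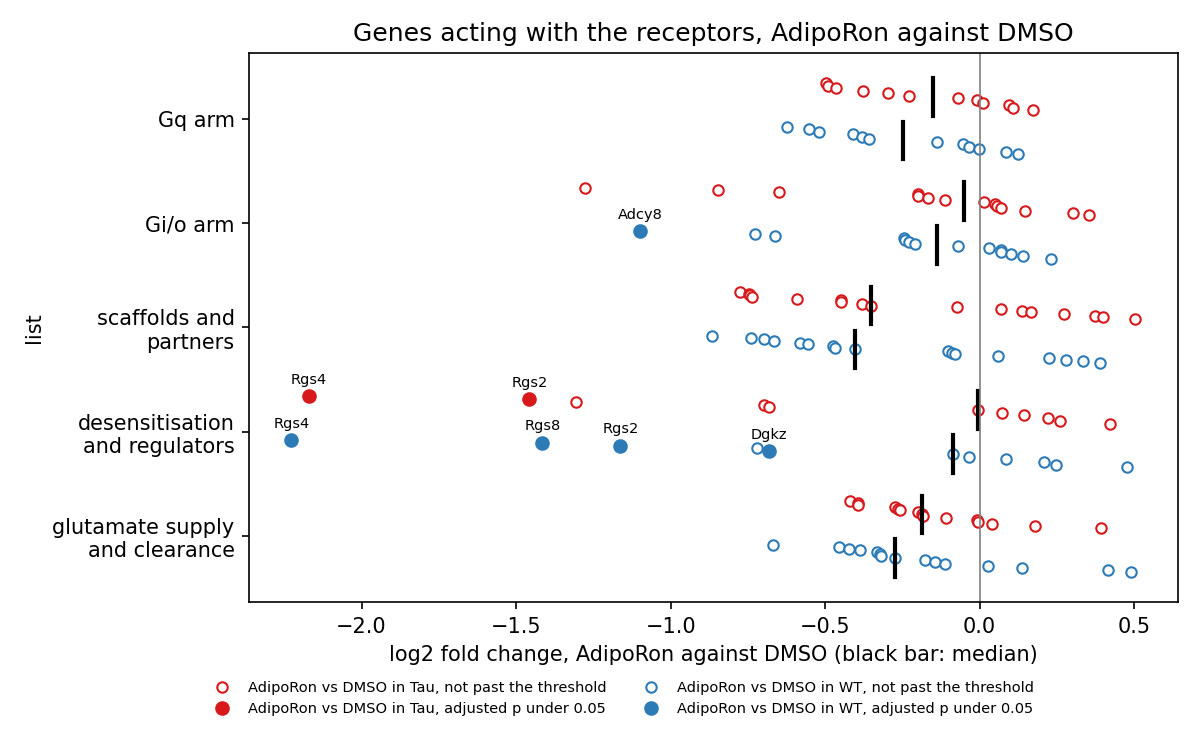
Log2 fold change with AdipoRon against DMSO for the 69 genes that act with the receptors, in 5 lists, for Tau (red) and WT neurons (blue), with genes past an adjusted p of 0.05 filled and named and the median of each list as a black bar. The 7 filled points all lie below 0, and 6 of them are regulators that limit receptor signals. Over all genes 0.503% in Tau and 2.07% in WT neurons were past the threshold and lower.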

How the data were processed

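PolyA RNA of 21 cultures was sequenced, and samples were grouped by their labelled genotype and treatment. Per the methods, the authors trimmed reads, aligned them to mm10 with STAR, quantified them with RSEM and compared groups with an edgeR generalized linear model. GRCm39 is also named in the study, and the tables are named after Rsubread, so the build and counter are stated both ways. Normalization and filters are not given in the sources used here. The dose is given as 10 μM in the sample characteristics, although the treatment protocol in the labels names millimolar.

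The authors deposited log2 fold changes and mean log2 CPM per gene, a test score (the likelihood ratio), and a p-value with its false discovery rate. These comparison columns are the only measurements used here. The authors' p-values were recomputed from the likelihood ratio (chi-square, 1 degree of freedom) and adjusted by Benjamini-Hochberg over each whole table. Calls at 0.05 were identical for every gene. SE was the absolute log2 fold change divided by the root of this ratio, an approximation since the authors' edgeR values hold a prior count, and intervals are 95% normal. Group levels were solved from the mean log2 CPM and log2 fold change, weighted by group size. The response difference was a two-sided z test. Scripts used Python 3.11.15, pandas 2.3.3 and SciPy 1.17.1 and were tested on simulated data.

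Coordinates are RefSeq's (GRCm38.p6), and lengths are GENCODE canonical transcripts of GRCm39. All 7 genes are named in all comparisons, with every signalling gene past an adjusted p of 0.05 and the Homer and Elfn genes. Other genes, which illustrate a list, were chosen after their values were seen. The receptor genes and lists were chosen with earlier results of these data known. Some genes of this family and of the lists are not reported here, and counts over a list leave them out. Alternatives were other thresholds and adjustments, a fold limit, other gene filters, rescaled z scores, other weights and other transcript lengths.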

Additional observations from a re-analysis of the deposited data

How the results depend on the processing

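A threshold of 0.01, Benjamini-Yekutieli adjustment and the fold limit can only remove calls, so a count of 0 could not change under them. With these included, the count of receptor genes past the threshold stayed at 0 under 27 of 28 combinations of comparison and alternative. The exception was Tau against WT with AdipoRon after the z scores were divided by their robust SD over all genes (0.630), where 1 gene, Grm3, passed (adjusted p 0.00505, range over its alternatives 0.00505 to 1.00) and 677 genes were called in all. In the other comparisons that SD was 0.454 (Tau against WT with DMSO), 0.702 (AdipoRon in Tau neurons) and 0.959 (AdipoRon in WT neurons). The adjusted p of Grm8 for AdipoRon in WT neurons ranged from 0.117 to 1.00. For AdipoRon in Tau neurons, the 2 signalling genes called became 0 at an adjusted p of 0.01, 0 with Benjamini-Yekutieli adjustment, 4 at 0.1, 1 (Rgs4) among genes above the median level and 5 with the rescaled z scores. In WT neurons the 5 called became 3 with Benjamini-Yekutieli adjustment. The rescaled scores also called 1 signalling gene, Rimklb, in each comparison of Tau with WT (0 otherwise). With the longest transcript in place of the canonical one, the level of Grm2 in WT with DMSO was 0.78 in place of 1.31 log2 CPM per kb, and the order of Grm2 and Grm3 turned in WT with AdipoRon and in Tau with DMSO. The ranks of the other 5 genes were the same in all 4 groups. The cause of the changed calls was not tested. The difference between responses called 0 receptor genes under all 6 alternatives. Among these, a threshold of 0.01, Benjamini-Yekutieli adjustment and the larger SE taken for both genotypes could not have raised the count. With the z scores of this difference divided by their robust SD (0.314), 873 genes were called in all. The lowest adjusted p of a receptor gene was then 0.109 (z test). Genes of low level lack a value where only genes above the median level were kept. No paired analysis was possible because the tables hold no value per culture, and for the same reason no culture was left out in turn. The depth of each culture was not used here.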
